A study of Mus musculus with 8 samples.

Results

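The genes described here encode the constitutive 26S proteasome, the protease that degrades ubiquitin-tagged proteins. The members are 31 listed subunit genes, taken as every probe set whose platform annotation names one of them, of 12393 named genes on the array. All 31 had a probe set, 60 in all, and each of the 60 named 1 gene alone. RNA came from mouse bone marrow derived macrophages cultured for 7 days in 50 ng/ml M-CSF, a macrophage growth factor. The genotypes were wild type and Vdr-/-, the latter carrying the Vdr tm1 Rge allele, in which the gene for the vitamin D receptor is knocked out. Cells of each genotype were left untreated or received IFN-gamma, calcitriol (1alpha,25-dihydroxyvitamin D3) or both, and treatments lasted 24 to 48 hours. Each of the 8 groups had 1 array, so no group has a replicate. The sources used here give no dose of either agent, no age or sex of the mice and no number of mice behind an array.

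A 26S proteasome joins a barrel, the 20S core, to regulatory 19S particles at its ends. The core stacks rings of alpha subunits, which gate the entrance, on rings of beta subunits, some of which cut peptide bonds. The 19S base holds a ring of ATPases that unfold the substrate and thread it into the core, together with scaffold and ubiquitin-binding subunits, and the 19S lid holds the enzyme that removes ubiquitin. In macrophages IFN-gamma is known to induce alternative catalytic beta subunits and the PA28 activator, which remodel the peptides made for MHC class I presentation. The subunits described here are those that both forms of the core share, with the 19S particle and its assembly chaperones.

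Start regions of 5 of the 6 subunit genes called in any comparison are shown, so that their sequences can be read directly. The genes shown were not all called in the same comparison or direction. They run from 140 bases before to 10 bases from the annotated start, in RefSeq's GRCm38.p6 coordinates. Of the 31 genes 26 matched a RefSeq promoter window by symbol, and the called gene Psmc3 is not among them. Capitals mark CTTCCG or its reverse complement CGGAAG, the core letters that factors of the ETS family bind.
Psmb4, chr3:94886949-94887098, minus strand: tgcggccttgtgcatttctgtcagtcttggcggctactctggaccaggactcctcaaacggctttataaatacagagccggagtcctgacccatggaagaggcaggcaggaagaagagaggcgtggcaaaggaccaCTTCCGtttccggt
Psmd1, chr1:86064479-86064628, plus strand: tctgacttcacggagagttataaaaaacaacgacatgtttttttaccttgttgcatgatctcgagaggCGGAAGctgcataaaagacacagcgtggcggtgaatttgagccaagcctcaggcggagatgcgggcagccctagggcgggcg
Psmc1, chr12:100110062-100110211, plus strand: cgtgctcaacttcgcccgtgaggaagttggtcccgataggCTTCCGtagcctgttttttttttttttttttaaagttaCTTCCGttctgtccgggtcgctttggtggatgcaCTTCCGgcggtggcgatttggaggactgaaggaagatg
Psmc5, chr11:106256045-106256194, plus strand: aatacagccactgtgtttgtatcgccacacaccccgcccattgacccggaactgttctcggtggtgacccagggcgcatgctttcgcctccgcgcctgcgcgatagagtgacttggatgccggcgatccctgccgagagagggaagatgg
Psmd2, chr16:20651512-20651661, plus strand: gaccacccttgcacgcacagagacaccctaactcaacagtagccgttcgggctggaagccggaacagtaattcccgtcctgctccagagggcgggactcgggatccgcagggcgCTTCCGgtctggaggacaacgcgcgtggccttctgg
In the whole window of 250 bases before to 50 bases after the start, searched on both strands, CTTCCG stood in 17 of 26 subunit genes (65.4%). The share was 18.8% of all 27025 genes with a window and 32.0% of the 8411 that were also tested on the array. This motif was chosen after the windows had been read, so the shares are a description. Psmc1 held 3 matches, at 100, 62 and 28 bases before its start, and Psmc5 held 0. The CCAAT box, searched as CCAAT, stood in 42.3% of the subunit genes and 42.4% of the genes on the array. The antioxidant response element core, TGACNNNGC, stood in 11.5% and 16.7%. Of the interferon-linked motifs, the gamma-activated site, TTCNNNGAA, was present in Psmd2 (3.85% of the subunit genes against 8.43%), and the interferon-stimulated response element, taken as GAAA repeated after a gap of 2 bases, in Psmb3, Psmd4 and Psmd9 (11.5% against 4.02%). The vitamin D response element, taken as GTTCA repeated after a gap of 4 bases, matched 0 subunit genes and 0.0592% of all genes. This exact pattern is so rare that 0 of 26 says little about such elements in these genes. The searched motifs can overlap each other, and a match does not show binding.

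Values are array signals, scaled by the submitters so that each array had the same trimmed mean, with median signals of 53.4 to 68.2. All 31 genes had a probe set that passed the filter on low signals, 55 of the 60 in total, and each gene is described by its brightest one. Changes are differences of log2 signal, with signals below 15.5 set to that floor. The Gapdh 3'/5' signal ratio, which rises when labelled RNA is shortened towards its 3' end, was 7.67 on the wild-type calcitriol array, 4.82 on the array labelled Vdr-/- untreated and 3.06 on the Vdr-/- IFN-gamma array. It lay between 0.853 and 1.65 on the other 5. The same ratio for beta-actin was 4.08, 3.27 and 1.53 on these 3 arrays in the same order, and 1.39 to 1.81 on the other 5. By actin the Vdr-/- IFN-gamma array thus did not stand out. Both Vdr probe sets went against the labels of the untreated arrays, with 6.7 and 5.3 in the one labelled wild-type untreated against 90.3 and 63.2 on the array labelled Vdr-/- untreated. In the other 3 pairs both followed the labels, with 51.5 and 118.1 against 2.6 and 9.8 with calcitriol, 84.4 and 82.9 against 45.6 and 2.5 with IFN-gamma, and 226.7 and 385.9 against 25 and 23.6 with both, wild type first. The sources used here do not say whether these probe sets lie in the deleted part, so what they say about the labels is limited, and values with the untreated labels exchanged are given beside the results. The IFN-gamma response genes Irf1 and Cxcl9 followed the IFN-gamma labels on all 8 arrays.

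The subunit genes were well above the floor nearly throughout. The signals of 29 genes stayed above it on all 8 arrays, and the other two, Psmd7 and Psmd9, were at the floor on 1 or 2 arrays. Psmd7, a lid subunit that partners the deubiquitinase, read 5.5 on the array labelled Vdr-/- untreated and 70.6 to 234.4 elsewhere. Psmd9, an assembly chaperone of the base, read 6.9 on that array and 11 on the wild-type calcitriol array, against 55.4 to 144.8 on the other 6. The steadiest member was Psmd14, the deubiquitinase of the lid, whose highest signal was 1.45 times its lowest. Its signals in wild type, in the order untreated, calcitriol, IFN-gamma and both, were 911.1, 1050.6, 730.9 and 989.1, and in Vdr-/- 763.2, 837.4, 725.3 and 822.4.

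Array by array, the median subunit gene stood highest on the wild-type IFN-gamma array, 0.26 log2 above its own mean over the 8 arrays. It stood lowest on the array labelled Vdr-/- untreated (-0.24) and on the wild-type calcitriol array (-0.22). The Vdr-/- IFN-gamma array had -0.13, and the other arrays 0.05 to 0.20. The 3 arrays below zero are those with the 3 highest Gapdh ratios, whose part in the levels was not tested. Over all genes tested the medians ran from -0.05 to 0.15, and the 2 arrays with the lowest subunit medians had the highest of these, 0.15 and 0.11. The 3 arrays with the highest ratios were the 3 lowest for 5 of the 31 subunit genes (16.1%), Psmc3, Psmc4, Psmd2, Psmd13 and Psmd9, against 2.56% of all genes. They were the 3 highest for 0 of the 31, against 3.94% of all genes. This pattern was chosen after the values were seen and has no test, and the actin ratio did not set the Vdr-/- IFN-gamma array apart.

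**Figure D1:**
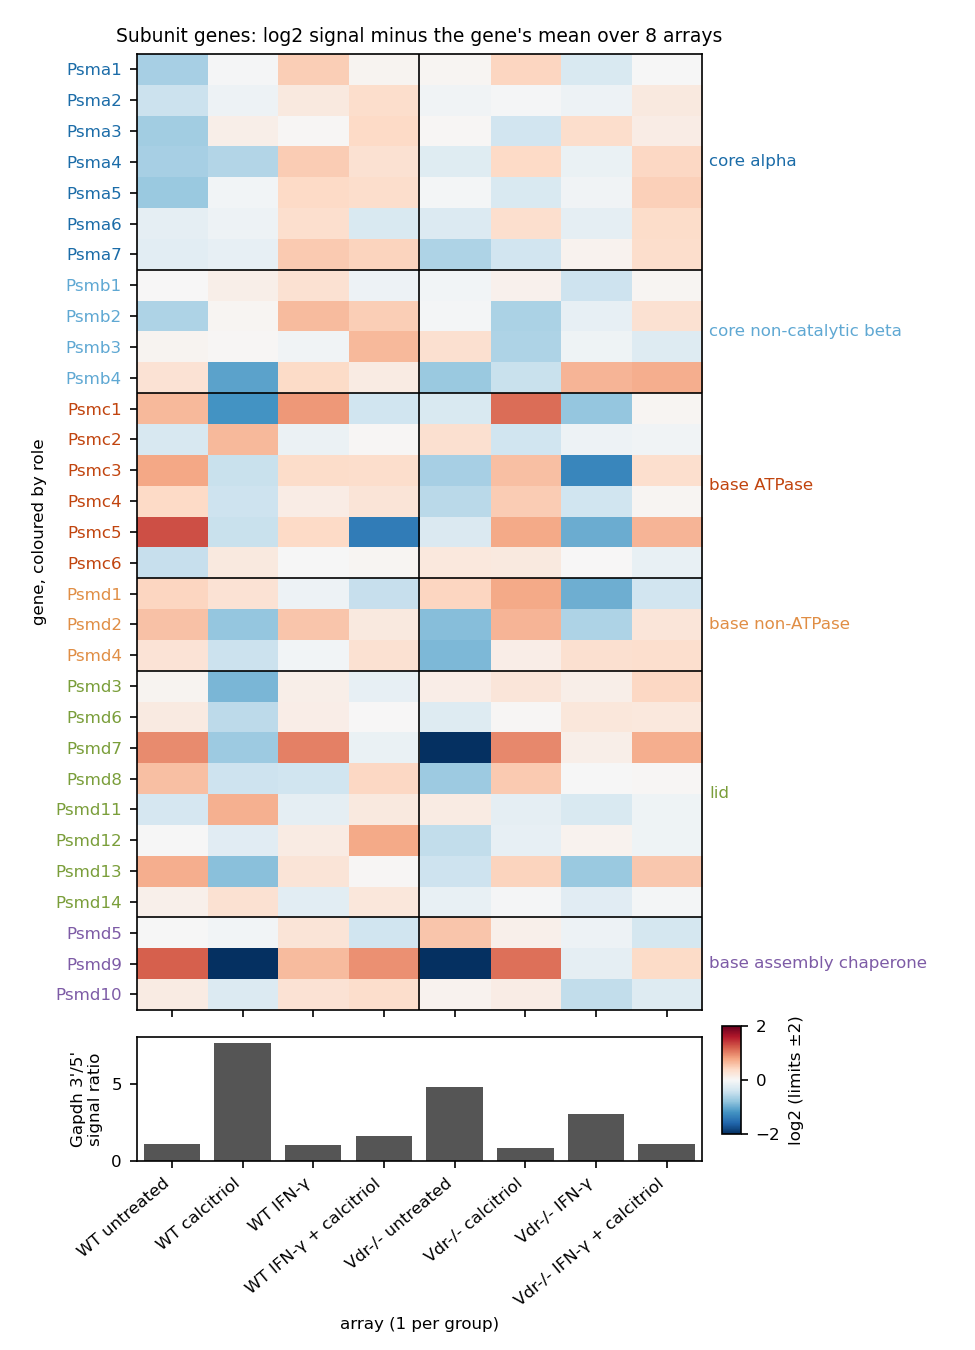
Log2 signal of each of the 31 subunit genes (rows, grouped and coloured by role) minus that gene's mean over the 8 arrays (columns, 1 per group), with blue for lower and red for higher and colours ending at 2 log2 either way. The bars below give each array's Gapdh 3'/5' ratio; on the arrays with ratios of 7.67, 4.82 and 3.06 the median base ATPase gene stands at -0.43, -0.30 and -0.58 and the median lid gene at -0.47, -0.34 and 0.03, while the alpha genes are bluest on the wild-type array labelled untreated.

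The IFN-gamma effect was taken over the 4 pairs of arrays that share genotype and calcitriol. Of the 31 genes 2 passed the limma test over all probe sets, Psmb4, which rose, and Psmd1, which fell. Over all named genes 3.99% were called, 2.42% higher and 1.56% lower, so 2 of 31 is near the background. The median difference of the subunit genes was 0.12 log2, with 20 above and 11 below zero, against -0.09 over all genes. The 11 core genes had a median of 0.46 log2 with 10 above zero, and the 20 genes of the 19S particle and its chaperones a median of -0.02 with 10 above zero. The difference between these classes was not tested. The spread behind each test is the disagreement of the array pairs, which may be technical.

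Psmb4, a beta subunit without catalytic activity that takes part in joining core precursors, was called higher. Its signals in wild type were 2491 untreated, 968.3 with calcitriol, 2659.7 with IFN-gamma and 2266.9 with both. In Vdr-/- they were 1214.1, 1488.3, 3255.9 and 3369.3 in the same order. It was higher with IFN-gamma in 4 of 4 pairs, yet the array labelled wild-type untreated read above the wild-type array with both agents, so the groups overlapped. Its lowest signals, 968.3 and 1214.1, came from the arrays with the highest Gapdh ratios, 7.67 and 4.82, both without IFN-gamma. With log2 of that ratio as a covariate Psmb4 was not called. The mean change was 0.98 log2 (SE 0.231, limma adjusted p = 0.0134), a 1.97-fold rise, and the wild-type pair without calcitriol gave 0.09 where the others gave 1.18 to 1.42. A second, dimmer Psmb4 probe set gave 0.25, and the mean over both gave 0.61 and was not called.

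Psmd1, the large scaffold subunit of the base, went the other way. Its signals in wild type were 837.1 untreated, 759.6 with calcitriol, 581.6 with IFN-gamma and 450.1 with both. In Vdr-/- they were 840.8, 1055.6, 315.4 and 478.2. All 4 arrays with IFN-gamma lay below all 4 without it, which held for 1 of 31 subunit genes and 4.06% of all genes. Psmd1 fell by 0.96 log2 (SE 0.233, limma adjusted p = 0.0167), a 1.94-fold difference, with single pairs from -1.41 to -0.53.

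The alpha ring, Psma1 to Psma7, lay above zero in 7 of 7 genes, with differences of 0.11 to 0.69 log2 and a median of 0.46, and none was called. The rise was not uniform over pairs. The alpha median was 0.72 and 0.40 in wild type, without and with calcitriol, but 0.09 and 0.22 in Vdr-/-. Psma3, Psma4 and Psma7 were higher in 4 of 4 pairs, Psma2, Psma5 and Psma6 in 3, and Psma1 in 2. The pair with 0.72 holds the untreated wild-type label, where the alpha median was lowest, at -0.66 from the gene means. In this ring 4 of 7 genes had an unadjusted p under 0.05, as had 7 of the 31 subunit genes (22.6%) and 13.3% of all genes. Psma7 came nearest, at 0.69 log2 (SE 0.213, adjusted p = 0.0873), and it was called when each array was centred on its median. It read 718.6 and 737.3 in wild type and 542.2 and 634.2 in Vdr-/- without IFN-gamma, first without and then with calcitriol. With IFN-gamma it read 1187.3 and 1133.4 in wild type and 867.6 and 1060.7 in Vdr-/-. It was thus the only subunit gene whose 4 arrays with IFN-gamma all lay above the 4 without, a pattern of 3.4% of all genes. Its 4 pairs gave 0.62 to 0.74 log2. Psma5 had 0.57 (adjusted p = 0.268), Psma4 0.55 (0.344) and Psma3 0.46 (0.346), while Psma2 (0.32), Psma1 (0.12) and Psma6 (0.11) lay closer to zero. With quantile normalization, with centred arrays or with the Gapdh ratio as a covariate 7 of 7 lay above zero, with medians of 0.43 to 0.56. Without the 2 untreated arrays it was 5 of 7.

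The other non-catalytic beta genes were uneven. Psmb2 had a difference of 0.63 log2 (adjusted p = 0.232), Psmb3 0.12 and Psmb1 -0.09, and none of the 3 was called. Psmb1, which also lacks a catalytic site, read 691 to 1143.2 over the 8 arrays.

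**Figure D2:**
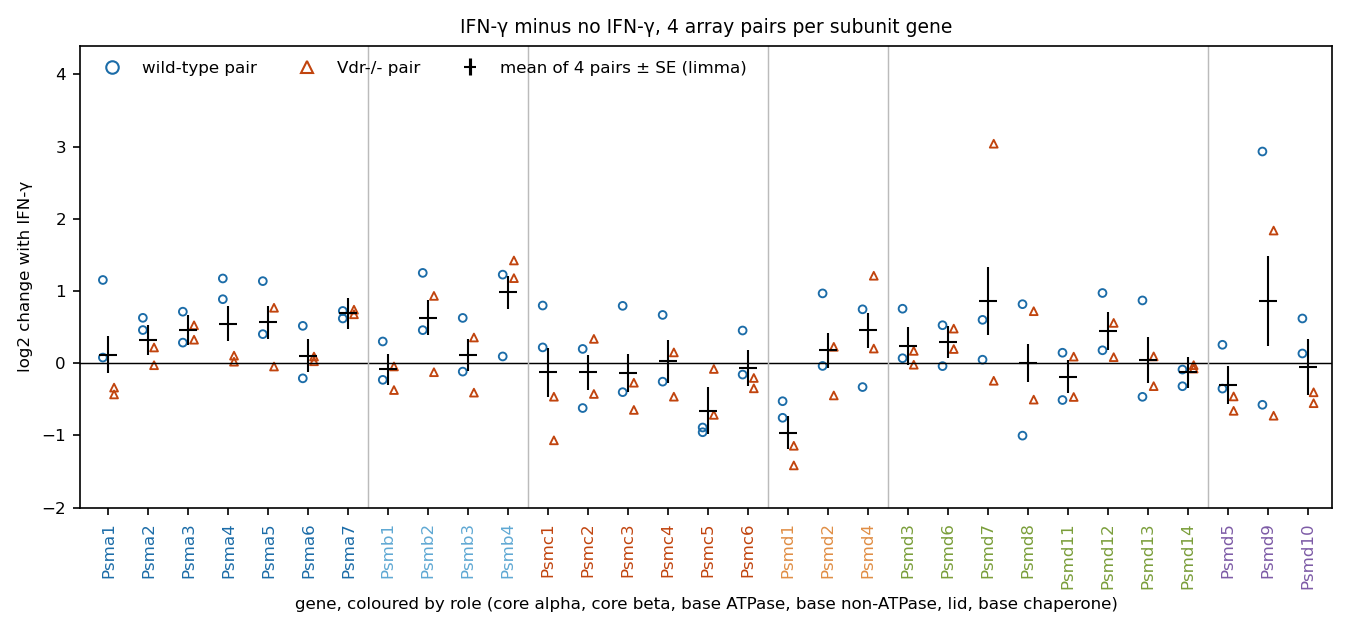
Log2 change with IFN-gamma for each subunit gene (columns, coloured by role) in the 2 wild-type pairs (circles), the 2 Vdr-/- pairs (triangles) and their mean with the SE of the limma fit (black). Psma7 is tight at 0.62 to 0.74, Psmb4 and Psmd1 are the 2 genes called, and the spread of Psmd7 and Psmd9 comes with arrays at the floor.

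In the 19S base, the 6 ATPase genes had a median of -0.13 log2 and 1 above zero. They ran from -0.66 for Psmc5 (adjusted p = 0.413) to 0.03 for Psmc4, with Psmc1, Psmc2 and Psmc3 at -0.13 and Psmc6 at -0.06. Psmd2, the second scaffold subunit, had 0.18 and the ubiquitin receptor gene Psmd4 had 0.46 (adjusted p = 0.47). The 8 lid genes had a median of 0.15, from -0.18 for Psmd11 to 0.86 for Psmd7 (adjusted p = 0.495). Between them lay Psmd12 at 0.45, Psmd6 at 0.29, Psmd3 at 0.24, Psmd13 at 0.05, Psmd8 at 0.01 and Psmd14 at -0.13. Of the chaperones that build the base, Psmd9 had 0.87 (SE 0.625, adjusted p = 0.646), Psmd10 -0.05 and Psmd5 -0.30. The values of Psmd7 and Psmd9 depend on the floor, since single arrays without IFN-gamma sat on it.

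Leaving out the wild-type pair without calcitriol left Psmb4 as the 1 call, and leaving out any of the other 3 pairs left 0, while limma still called 99 to 420 probe sets over the whole array. The sizes moved less than the calls: over 17 alternative settings Psmb4 lay at 0.61 to 1.28 log2 and Psmd1 at -1.10 to -0.81, each with the same sign in 17 of 17 and called in 7. The subunit median of 0.12 was 0.04 without the wild-type calcitriol pair and 0.19, 0.16 and 0.22 without each of the others. Without the 2 arrays with the highest Gapdh ratios 0 probe sets of the array were called, with 1 residual degree of freedom, and the core median was 0.60 and the 19S median -0.15. With log2 of the Gapdh ratio as a covariate the median of all 31 genes was 0.00 and the core median was 0.43. Psmd1 was still called in this fit, and Psmb4 was not. The direction of the 19S group is not fixed: centring each array on its median moved it to 0.07.

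The same pathway held genes that moved far more. Of the immunoproteasome and PA28 genes, which exchange the catalytic sites and the cap of the core, 4 of 4 measured (of 5 listed) rose with IFN-gamma, with a median of 2.40 log2. They were Psmb8 (3.88), Psmb10 (2.40), Psmb9 (2.40) and Psme1 (1.81, adjusted p = 3.2e-05). The catalytic genes they replace were not called, with Psmb7 at 1.42 (adjusted p = 0.133), Psmb5 at 0.46 and Psmb6 at -0.27. Of 5 core assembly chaperones 1 rose, Pomp, which guides assembly of the core and its immunoproteasome form, by 0.90 log2 (adjusted p = 0.0216), and the median of the 5 was 0.62. In the other lists 0 were called: 3 other activators and inhibitors (median 0.15), 9 proteasome-associated factors (-0.28), 5 regulators of subunit genes (-0.17) and 4 genes of the p97 unfoldase and its cofactors (-0.07). The list of ubiquitin and E1 genes was not analysed here.

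Genotype was compared over the 4 pairs of arrays that share treatment, to ask whether the receptor gene alters subunit levels. No subunit gene was called, and limma called 0% of all named genes. An unadjusted p under 0.05 was found for 0 of the 31 and for 354 (3.39%) of all named genes, so 0 of 31 is near the background. The median difference, wild type minus Vdr-/-, was 0.08 log2, against 0.03 over all genes. It was -0.02 without the IFN-gamma pair, 0.21 without the calcitriol pair and 0.13 without the pair with both agents, so its sign is not fixed. With the untreated labels exchanged the median was again 0.08, with 0 of 31 genes and 7 probe sets of the whole array called. The exchange moved the base ATPase median from 0.04 to -0.24, the base non-ATPase from 0.08 to -0.44 and the lid from 0.15 to -0.37. The alpha median went the other way, from -0.07 to 0.18. The extremes were 2 lid genes. Psmd7 stood at 0.55 (SE 0.633), with 226.5, 70.6, 234.4 and 107.1 in wild type and 5.5, 228.9, 127.5 and 193.5 in Vdr-/- for untreated, calcitriol, IFN-gamma and both. Its wild-type arrays were higher in the untreated and IFN-gamma pairs and lower in the others, and without the untreated pair the difference was -0.56. Psmd3, a structural lid subunit, stood at -0.45 (SE 0.328), with 339.3, 173.4, 356.1 and 292.7 in wild type and 360.1, 387.3, 355.1 and 436.2 in Vdr-/-. The groups of Psmd3 overlapped only through 356.1 in wild type against 355.1 in Vdr-/-.

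The calcitriol effect in wild type was taken over 2 pairs, without and with IFN-gamma. Limma called 0.556% of all genes and none of the 31, 6 of which (19.4%) had an unadjusted p under 0.05, against 10.3% of all genes. The median difference of the subunit genes was -0.17 log2, against 0.05 over all genes, and that of the base ATPases -0.48. The lowest was Psmc5, a base ATPase, at -1.77 log2 (SE 0.467, adjusted p = 0.0901), where the wild-type pairs gave -1.74 and -1.80. The highest was Psmd11, a lid subunit, at 0.71 (SE 0.337, adjusted p = 0.478). It read 520.6 and 1068.5 without and with calcitriol, and 576 and 750.9 in the presence of IFN-gamma, and in Vdr-/- 736 and 578.9, then 532.6 and 617. Its wild-type calcitriol array stood above all others. The 6 tested Psmd11 probe sets ran from -2.21 to 1.12, and their mean gave -0.15, so the direction is not fixed.

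In the wild-type pairs the Gapdh ratio went from 1.11 to 7.67 without IFN-gamma and from 1.04 to 1.65 with it. The median ATPase difference was -1.01 in the first pair and 0.01 in the second. With the ratio as a covariate the median over the 31 genes was -0.01, and it was -0.03 when the untreated arrays swapped genotype labels.

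In Vdr-/- cells, where the receptor gene is disrupted, calcitriol was compared in the same way. Limma called 0.144% of all genes and none of the 31, with 6 (19.4%) at an unadjusted p under 0.05, against 6.12% of all genes. The subunit genes had a median difference of 0.26 log2, with 24 above zero, against -0.09 over all genes, and the base ATPases 0.93. The highest was Psmd7 at 2.24 (SE 0.665, adjusted p = 0.265), whose pairs gave 3.88, from the array at the floor, and 0.60. The lowest adjusted p was that of Psmc3, a base ATPase, at 1.45 (SE 0.370, adjusted p = 0.14). The lowest was Psmb3, a beta subunit, at -0.56 (SE 0.334, adjusted p = 0.885). It read 3427.9 and 1787.5 without and with calcitriol, and 2586 and 2289 in the presence of IFN-gamma. In wild type it read 2837.5 and 2778.4, then 2619 and 4293.1. The other tested Psmb3 probe set gave 0.66 in Vdr-/-, and the mean over both 0.05. The Gapdh ratio ran the opposite way to wild type, from 4.82 to 0.853 and, with IFN-gamma, from 3.06 to 1.07.

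**Figure D3:**
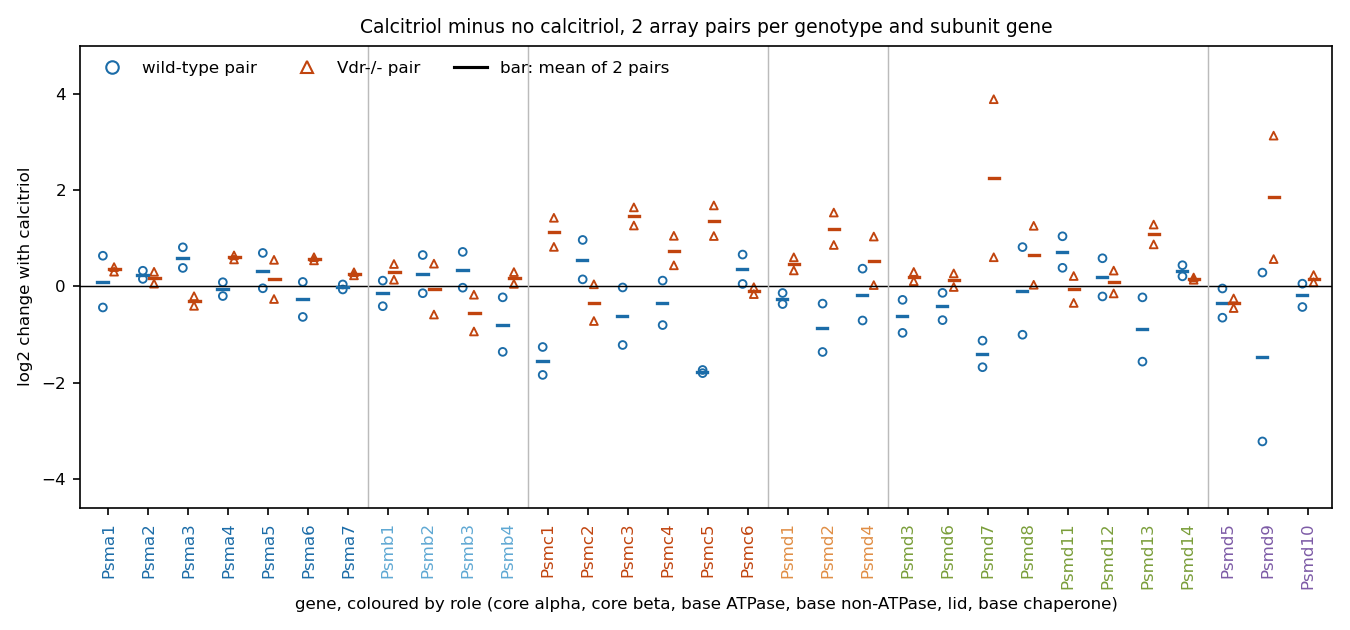
Log2 change with calcitriol for each subunit gene (columns, coloured by role) in the 2 wild-type pairs (circles) and the 2 Vdr-/- pairs (triangles), with bars at the mean of each genotype. Psmb4, Psmc1, Psmc3, Psmc5, Psmd1, Psmd2, Psmd3, Psmd7 and Psmd13 have both circles below and both triangles above zero. The alpha genes lie within 1 log2 of zero, as do several genes of the other roles, such as Psmb1, Psmc6 and Psmd14.

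Whether calcitriol acted differently in the 2 genotypes was tested next. Here 4 of the 31 genes were called, all with a lower calcitriol effect in wild type: the base ATPases Psmc5, Psmc1 and Psmc3 and the base scaffold gene Psmd2. Over all genes 1.38% were called, 0.22% higher and 1.16% lower. The median subunit gene had a difference of -0.55 log2, against 0.18 over all genes. The base ATPases had -1.58, the core -0.25 and the 8 lid genes -0.64. Each value without calcitriol and without IFN-gamma comes from an array labelled untreated.

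In wild type Psmc5 read 442.7 without and 132.6 with calcitriol, and 239 with IFN-gamma against 68.4 with both. In Vdr-/- it read 148.5 and 305.9, then 90.5 and 289.6. Calcitriol arrays were lower in both wild-type pairs and higher in both Vdr-/- pairs, and the difference was -3.13 log2 (SE 0.660, limma adjusted p = 0.0122). Its lowest array, wild type with both agents, had a Gapdh ratio of 1.65. The next lowest signals, 90.5, 132.6 and 148.5, came from the arrays with ratios of 3.06, 7.67 and 4.82.

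Psmc1, another ATPase of the ring, read 304 and 84.8 in wild type, then 354 and 147.6 with IFN-gamma. In Vdr-/- it read 156.6 and 419.5, then 113.6 and 200.2. The lowest wild-type arrays were again those with calcitriol, and the difference was -2.67 log2 (SE 0.647, adjusted p = 0.0331).

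Psmc3 read 782.1 and 335.6 in wild type without and with calcitriol, then 592.7 and 582.3 under IFN-gamma. In Vdr-/- it read 289.8 and 694.6, then 185.2 and 576.3. The wild-type pair without IFN-gamma differed by -1.22 log2 and the pair with it by -0.03, so the wild-type part of the difference came from the first pair. The difference between genotypes was -2.07 log2 (SE 0.523, adjusted p = 0.0435).

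Psmd2 read 1023.8 and 397.3 in wild type, then 997.8 and 776.9 under IFN-gamma. In Vdr-/- it read 378.7 and 1094, then 443.4 and 803.2. Its 3 lowest arrays were those with the highest Gapdh ratios, and so were those of Psmc3. The difference was -2.06 log2 (SE 0.491, adjusted p = 0.0301).

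Psmd7 had a larger difference, -3.65 log2 (SE 0.941), at an adjusted p of 0.0501, with 1 array at the floor. The highest was Psma3, an alpha subunit, at 0.90 (SE 0.441, adjusted p = 0.418). Psma3 read 827.7 and 1449.4, then 1357.8 and 1767 in wild type, and 1359.7 and 1025.4, then 1704.8 and 1476 in Vdr-/-. Psmd13, a lid subunit, had -1.97 (adjusted p = 0.172), and Psmd9 -3.32 (SE 1.27, adjusted p = 0.267). Psma2, Psma5, Psmd12, Psmd14 and Psmd5 lay between 0.00 and 0.18. Psmb3, Psmc2, Psmd11, Psmc6 and Psmb2 had 0.31 to 0.90, and the remaining 13 genes -1.09 (Psmc4) to -0.25 (Psma1). Signals that were lower with calcitriol in both wild-type pairs and higher in both Vdr-/- pairs were found for 9 of the 31 genes: Psmb4, Psmc1, Psmc3, Psmc5, Psmd1, Psmd2, Psmd3, Psmd7 and Psmd13. This pattern held for 8.1% of all genes. The opposite pattern held for Psma3 and Psmc6, 2 of 31, and for 10.2% of all genes.

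In the wild-type pairs the calcitriol array had the higher Gapdh ratio and in the Vdr-/- pairs the lower one, while the median subunit difference was -0.14 and -0.07 in the former and 0.29 and 0.30 in the latter. In the wild-type pair where the ratio went from 1.11 to 7.67, the median was 0.32 for the alpha genes and -1.01 for the base ATPases. The part of the ratio in the calls was not tested beyond the values that follow. With log2 of the ratio as a covariate, which leaves 1 residual degree of freedom, 0 of 31 were called, with 73 probe sets called over the whole array. The differences were -3.65 for Psmc5, -1.43 for Psmc1, -0.60 for Psmc3 and -0.16 for Psmd2. With additive terms and without the 2 arrays with the highest ratios 0 were called on the whole array, with the 4 genes at -3.48, -2.08, -1.66 and -1.22 in that order. Without the 2 arrays labelled untreated 0 were called on the whole array, with the 4 genes at -3.05, -3.01, -2.20 and -1.92. Leaving out any 1 of the 4 pairs left 0 calls on the whole array, with the 4 genes at -3.45 to -1.47. With the untreated labels exchanged the values were -1.56, -1.71, -0.64 and -0.62, with 0 called on the whole array. Centring each array moved the median over all genes from 0.18 to 0.05 log2 and called Psmd7 as well, as did the floor at the 40th percentile and the fit with no block, each with 5 genes called. Over 17 alternative settings all 4 genes stayed below zero, and Psmc5 was called in 6, Psmd2 in 4, Psmc1 in 3 and Psmc3 in 3.

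**Figure D4:**
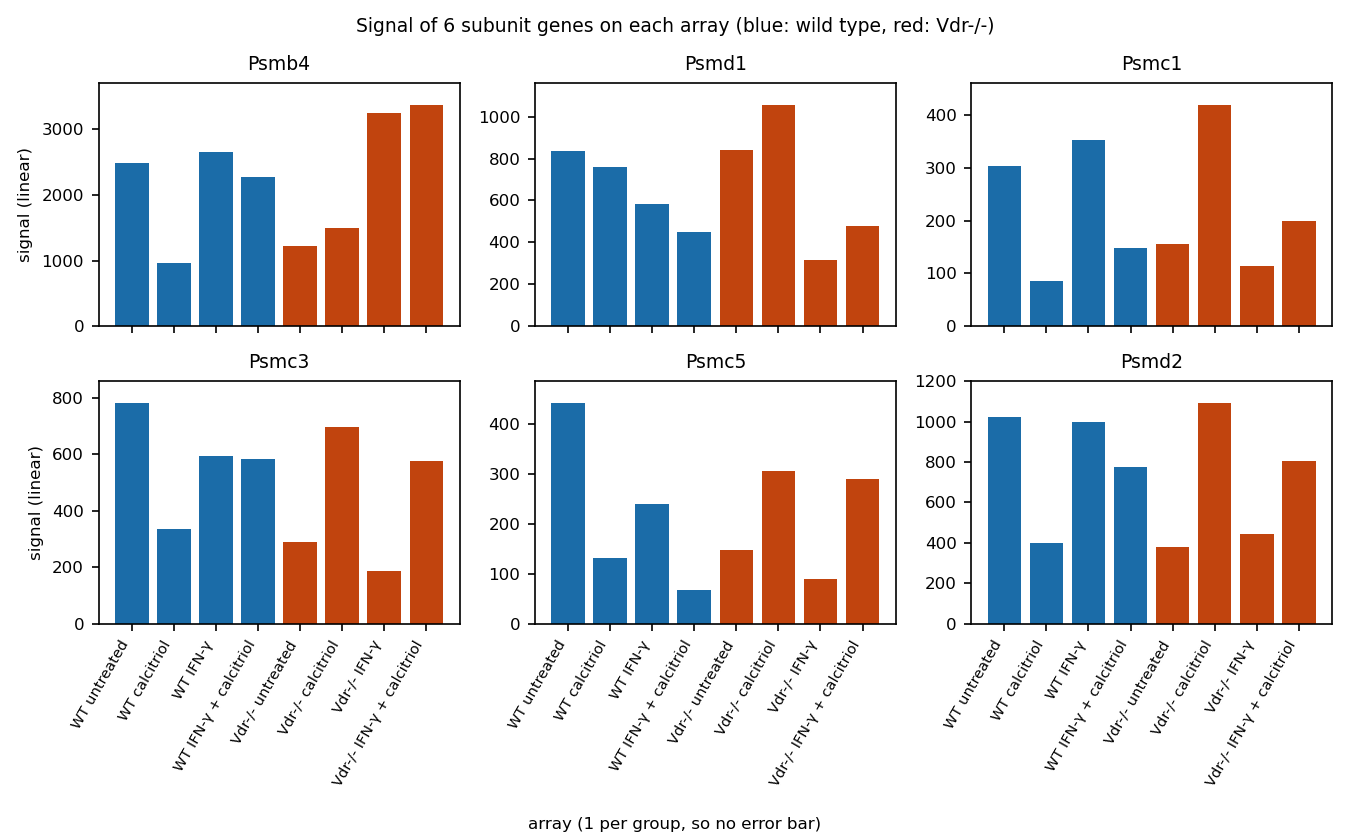
Deposited signal (linear axes from 0, each with its own scale) of the 6 subunit genes called with IFN-gamma (Psmb4, Psmd1) or for the difference in calcitriol effect (Psmc1, Psmc3, Psmc5, Psmd2) on each of the 8 arrays, with wild type in blue and Vdr-/- in red. Psmd2 reads 397.3, 378.7 and 443.4 on the 3 arrays with the highest Gapdh ratios and 776.9 to 1094 on the other 5.

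The immunoproteasome and PA28 list was called lower in the same test for 4 of 4 genes, at -4.30 (Psmb8) to -2.35 (Psmb10) log2. Without IFN-gamma its summed signal was 595.6 (wild type, calcitriol) and 592.6 (Vdr-/-, untreated label), where the Gapdh ratio was highest. It was 2534.4 (wild type, untreated label) and 2850.6 (Vdr-/-, calcitriol) otherwise. With IFN-gamma the sum went from 9380.2 to 5132.5 with calcitriol in wild type, and from 6929.7 to 8356 in Vdr-/-. Psmb7, a replaced catalytic gene, was also called, at -4.76 (adjusted p = 0.00497). The replaced catalytic genes summed to 1287.3, 1243.1 and 1295.7 on the 3 arrays with the highest Gapdh ratios, and to 1757 to 2931.4 elsewhere. The part of the ratio and of the untreated labels in the calls of these lists was not tested. Not all genes of these lists stayed above the floor on every array, so single sizes can depend on it. The core assembly chaperones had a median of 0.12 and the proteasome-associated factors 0.54, with 0 called in either. Of the 8 macrophage markers 3 were called lower, Cd68, Itgam and Fcgr1 (list median -0.57), and of 3 dendritic markers tested 1, Itgax, was called higher at 2.32 (adjusted p = 0.0337). Their part in the subunit calls was not tested. The p97 list had -0.70, the activators and inhibitors -0.11 and the regulators 0.29, also with 0 called.

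A difference in IFN-gamma effect between the genotypes was called for 0 of the 31 genes and for 0% of all named genes. An unadjusted p under 0.05 was found for 0 of the 31 and for 383 (3.67%) of all named genes, so 0 of 31 is near the background. The median of the subunit genes was 0.31 log2, wild type minus Vdr-/-, against -0.02 over all genes, and it was 0.07 without the wild-type calcitriol pair. Psmc1 was highest at 1.27 (SE 0.647), with -0.49 for the mean over its probe sets. Psmd7 was lowest at -1.07 (SE 0.941), a value that rests on the array at the floor: it was 0.57 without the pair that holds that array, and it changed sign in 4 of 17 alternatives, from -2.71 to 2.80. Psmc1, Psma1 and Psmd10, 3 of 31, were higher with IFN-gamma in each wild-type pair and lower in each Vdr-/- pair, as were 4.18% of all genes, and the reverse held for 0 of 31 and 4.18%. With the untreated labels exchanged 1 of the 31 genes was called, Psmd2, among 109 of 18058 probe sets called over the whole array.

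Genes with several probe sets gave a check within each array. Of the 15 genes with more than 1 tested probe set, all probe sets of a gene had the same sign for 8 with IFN-gamma and for 3 in the difference of calcitriol effects. Psma7, with 2 probe sets, gave 0.67 and 0.69 log2 with IFN-gamma. Second probe sets were called for Psma5 (0.87 log2 with IFN-gamma, adjusted p = 0.0244) and for Psmd4 (1.76 with IFN-gamma, adjusted p = 0.0377, and -3.94 in the calcitriol difference, adjusted p = 0.0358). The Psmd4 probe set read 4.3 on the wild-type calcitriol array, below the floor, and 57.4 on the array labelled Vdr-/- untreated, against 275.4 to 473.7 on the other 6. The brightest Psmd4 probe set read 640.7 and 466.8 on these 2 arrays and 835 to 1099.2 on the others.

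Psmc2, a base ATPase gene, had probe sets that went opposite ways with calcitriol. Its second probe set had a difference of -2.65 log2 (SE 0.544, adjusted p = 0.0106), whereas the brightest gave 0.89. The second probe set read 416.1 and 241.1, then 671.3 and 239 in wild type, and 203 and 609.2, then 149.2 and 401.8 in Vdr-/-. The brightest read 501.5 and 976.5, then 575.5 and 635.4 in wild type, and 778.8 and 472, then 580.1 and 596.5 in Vdr-/-. On the 3 arrays with the highest Gapdh ratios the second probe set read 149.2 to 241.1, against 239 to 671.3 on the others. The brightest had its 2 highest signals, 976.5 and 778.8, on the 2 arrays with the highest ratios. The 4 genes called in the calcitriol difference by their brightest probe set had no second tested probe set; Psmc1 has a dimmer one that did not pass the filter, and with both averaged its difference was -1.54, not called.

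Markers of the labelled cell type were present throughout. All 8 macrophage markers stood above the floor on all 8 arrays, with a summed signal of 46075 to 70154, and of these Fcgr1, an Fc receptor gene, rose with IFN-gamma. The summed signal of 7 neutrophil markers was 201 to 423, that of 5 stromal markers 89.6 to 527, that of 4 dendritic markers 204 to 1449, that of 3 lymphocyte markers 26.5 to 109 and that of 2 erythroid markers 14.8 to 193. Stromal signal was 336 to 527 without IFN-gamma and 89.6 to 244 with it, where the collagen gene Col3a1 fell, and its part in the IFN-gamma changes was not tested. The other 4 marker lists had 0 called with IFN-gamma. In bulk RNA, fewer cells of a type and less RNA per cell cannot be told apart.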

How the data were processed

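Total RNA of 8 macrophage cultures was read on 1-colour arrays, 1 per combination of genotype, IFN-gamma and calcitriol. The deposited values are linear probe set intensity signals. The authors had scaled each array to a common level, as the values show: the mean after trimming 2% at each end was 150 on every array. Software, detection calls and scan batches were not given in the sources used here. Besides marrow cultures, the labels' protocols cover peritoneal cells as well, and all 8 source labels name macrophages from marrow. The number of arrays limits the precision, and the floor held 15.5% of tested values.

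The table held 22690 probe sets, and 22626 remained once 64 controls were removed. The platform annotation, which can be old, named 1 gene for 20380 of them, several for 691 and none for 1555. The pooled 25th percentile (15.5) served as a floor before log2 was taken. A probe set entered the tests if any array reached the pooled median of 59.1, which gave 18058 probe sets and 10437 named genes, each represented by its brightest probe set. Two-sided limma tests (limma 3.58.1, R 4.3.3, intensity trend) were adjusted by Benjamini-Hochberg over all 18058, with calls at 0.05. IFN-gamma and genotype effects used blocks of array pairs and left 3 residual degrees of freedom, and the others, nested in genotype, left 2. The fits were tested on simulated data.

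The members and gene lists were chosen with earlier results of these data known. Every subunit gene called in any contrast, and the highest and lowest of each contrast, is given with its values, and the others by role. The lists were the immunoproteasome and PA28, the replaced catalytic subunits, core assembly chaperones, other activators and inhibitors, associated factors, regulators, p97 with cofactors, and markers of macrophages and 5 other cell types. Motifs were searched in RefSeq promoter windows. Plots used matplotlib 3.10.9 under Python 3.11.15.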

Additional observations from a re-analysis of the deposited data

Results flagged for a closer look

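Several subunit genes had treatment effects that went opposite ways in the genotypes. Differences are wild type minus Vdr-/-, in log2. The difference in calcitriol effect passed the limma test for Psmc5 (-3.13), Psmc1 (-2.67), Psmc3 (-2.07) and Psmd2 (-2.06), all of which were lower with calcitriol in both wild-type pairs and higher in both Vdr-/- pairs. The wild-type pair of Psmc3 with IFN-gamma differed by only -0.03. Leaving out any pair or exchanging the untreated labels left 0 of these calls. The calcitriol array had the higher Gapdh ratio in the wild-type pairs and the lower one in the Vdr-/- pairs.

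The same arrangement of pairs held for Psmd7 (-3.65), Psmd13 (-1.97), Psmb4 (-0.97), Psmd3 (-0.83) and Psmd1 (-0.72), and the opposite one for Psma3 (0.90) and Psmc6 (0.44). None of these 7 differences passed the limma test. The 2 arrangements held for 8.1% and 10.2% of all genes.

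For IFN-gamma, Psmc1 (1.27), Psma1 (1.00) and Psmd10 (0.86) were higher with the cytokine in both wild-type pairs and lower in both Vdr-/- pairs. None of these 3 differences passed the limma test. This arrangement held for 3 of 31 subunit genes and 4.18% of all genes, and the reverse one for 0 of 31 and 4.18%.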

How the results depend on the processing

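The number of subunit genes called with IFN-gamma, 2 in the fit reported, was 0 without the signal filter, without the intensity trend, with no replicate block, without the 2 arrays with the highest Gapdh ratios and without the 2 untreated arrays. It was 1 with each gene's probe sets averaged, with the Gapdh ratio as a covariate and with the untreated labels exchanged, and leaving out each pair in turn gave 0 to 1. With centred arrays it was 3, adding Psma7. Without the signal filter limma called 80 probe sets over the whole array, without the trend 70 and with no block 394. Without the 2 highest-ratio arrays or the 2 untreated arrays it called 0. The number called for the difference of calcitriol effects, 4 in the fit reported, was 2 after quantile normalization, 1 with the floor at the 10th percentile or the mean over probe sets, and 0 without the signal filter, with the filter at the 75th percentile, without the trend, with the covariate, in both additive fits and with the labels exchanged. It was 5, adding Psmd7, with centred arrays, with the floor at the 40th percentile and with no replicate block. Leaving out each pair gave 0 to 0. Wherever this number was 0, limma also called 0 probe sets over the whole array, except for 73 with the covariate. The number called for the difference of IFN-gamma effects went from 0 to 1 with the labels exchanged, where calls over the whole array went from 0 to 109 probe sets. The cause of these changes was not tested, beyond the fewer arrays or other probe sets used.

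The median calcitriol change in wild type, -0.173, was -0.010 with the covariate, -0.045 in the additive fit without the 2 highest-ratio arrays and -0.032 with the labels exchanged, and -0.173 to -0.067 leaving out each pair. In Vdr-/- it was 0.258 in the fit reported, 0.197 after quantile normalization and with the mean over probe sets, 0.229 with the 75th percentile filter, 0.346 with centred arrays, 0.329 with the covariate, 0.402 and 0.415 in the additive fits without the highest-ratio and the untreated arrays, 0.244 with the labels exchanged, and 0.258 to 0.300 leaving out each pair. For the difference it was -0.546 in the fit reported, then -0.476 (quantile), -0.671 (centred), -0.346 (mean over probe sets), -0.348 (covariate), -0.357 and -0.454 (the additive fits) and -0.252 (labels exchanged), and -0.583 to -0.325 leaving out each pair. None of these 3 calcitriol medians changed sign. Leaving out each pair, the IFN-gamma median of 0.116 ran from 0.037 to 0.216, the genotype median of 0.083 from -0.020 to 0.210, and that of the difference of IFN-gamma effects, 0.314, from 0.072 to 0.285. The additive fits were chosen after seeing the data.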
